A study of Mus musculus with 16 samples.

Results

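A set of genes that code for chaperones were followed in mouse hematopoietic stem cells exposed to dmPGE2, a stabilised dimethyl form of prostaglandin E2. Of these 9 genes, 3 code for proteins of the endoplasmic reticulum (ER): Hspa5, Hsp90b1 and Dnajb9. The other 6 code for proteins of the cytosol: Dnajb1, Hspa1a, Hspa1b, Hspb1, Hspa8 and Ahsa1. The genes were taken by symbol from a table of 14829 genes. All 9 were found once, and all 9 passed the filter on low counts in each fit. Young mice 477, 478, 483 and 484 and old mice 479, 480, 485 and 486 each gave a vehicle and a dmPGE2 library, so 8 mice gave 16 libraries in 4 groups of 4. Whole bone marrow was kept at 37 °C with vehicle or dmPGE2 for 1 hour, and stem cells were sorted from it afterwards. All cells were therefore handled outside the animal, the vehicle cells included. The sources used here do not state strain, sex, exact ages or the sort gate, and no genetic change is named. The descriptions carry 2 consecutive dates, called date 1 (mice 477 to 480) and date 2 (mice 483 to 486), each with 2 young and 2 old mice. Which step the dates refer to is not stated.

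Chaperones bind unfolded proteins and help them reach their final shape. In the ER, Hspa5 (BiP) is the Hsp70 protein that binds newly imported chains, Hsp90b1 (Grp94) is the Hsp90 protein of the same compartment, and Dnajb9 (ERdj4) is a J-domain protein that drives the ATP cycle of Hspa5. Unfolded proteins in the ER switch on the unfolded protein response, whose sensors Ern1, Eif2ak3 and Atf6 act through the factors Xbp1, Atf4 and cleaved Atf6. In the cytosol, Hsf1 switches on heat shock genes. Hspa8 is the Hsp70 made at all times, Hspa1a and Hspa1b are near-identical inducible Hsp70 genes, Dnajb1 (Hsp40) is a J-domain partner of Hsp70, Hspb1 is a small heat shock protein, and Ahsa1 speeds the ATPase of Hsp90. Blood stem cells make protein slowly and are known to be sensitive to misfolded protein. Prostaglandin E2 acts on these cells through receptors that raise cAMP, and cAMP acts on genes through CREB, whose binding site contains the letters TGACG.

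The promoters are shown because the members differ in the stress elements they carry. The 250 bases before the annotated start were taken from RefSeq (GRCm38.p6) for the 3 members called after dmPGE2 and for Hsp90b1, Hspa1b and Hspb1, which were added after the values had been seen. Capitals mark 3 kinds of match on either strand: CCAAT followed 9 bases later by CCACG (the ER stress element), TGACG, and GAANNTTC (a pair of facing heat shock units). A match on the other strand reads CGTCA for TGACG, and CGTGG before ATTGG for the ER stress element.
Hspa5: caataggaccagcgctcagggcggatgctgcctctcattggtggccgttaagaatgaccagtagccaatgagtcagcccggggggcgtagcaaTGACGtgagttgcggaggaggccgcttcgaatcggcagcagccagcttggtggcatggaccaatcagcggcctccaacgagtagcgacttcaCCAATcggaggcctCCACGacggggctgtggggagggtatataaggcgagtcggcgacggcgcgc
Hsp90b1: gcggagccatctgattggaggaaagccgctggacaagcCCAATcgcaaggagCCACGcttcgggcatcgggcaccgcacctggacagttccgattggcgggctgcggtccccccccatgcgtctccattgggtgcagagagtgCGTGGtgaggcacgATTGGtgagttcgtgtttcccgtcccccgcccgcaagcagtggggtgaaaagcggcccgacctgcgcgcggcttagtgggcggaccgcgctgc
Dnajb9: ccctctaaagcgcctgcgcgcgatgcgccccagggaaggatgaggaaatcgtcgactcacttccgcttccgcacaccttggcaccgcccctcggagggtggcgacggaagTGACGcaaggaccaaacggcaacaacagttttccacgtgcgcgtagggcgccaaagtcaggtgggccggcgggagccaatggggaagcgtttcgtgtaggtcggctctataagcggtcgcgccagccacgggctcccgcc
Dnajb1: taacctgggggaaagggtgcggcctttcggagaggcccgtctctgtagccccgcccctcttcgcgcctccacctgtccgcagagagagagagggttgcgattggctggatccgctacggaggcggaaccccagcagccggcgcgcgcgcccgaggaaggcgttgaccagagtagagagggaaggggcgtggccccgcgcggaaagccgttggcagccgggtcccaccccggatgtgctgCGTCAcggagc
Hspa1b: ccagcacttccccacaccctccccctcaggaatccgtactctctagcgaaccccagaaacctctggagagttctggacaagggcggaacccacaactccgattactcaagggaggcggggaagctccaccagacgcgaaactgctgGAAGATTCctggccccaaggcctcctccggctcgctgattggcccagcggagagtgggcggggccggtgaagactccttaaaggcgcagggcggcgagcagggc
Hspb1: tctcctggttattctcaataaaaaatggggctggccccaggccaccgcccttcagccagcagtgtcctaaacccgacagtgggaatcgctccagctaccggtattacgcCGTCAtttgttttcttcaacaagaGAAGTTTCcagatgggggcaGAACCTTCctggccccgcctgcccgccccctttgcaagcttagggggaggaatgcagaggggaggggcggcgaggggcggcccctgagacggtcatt
The windows lie at chr2:34771840-34772089 (plus strand) for Hspa5, chr10:86705445-86705694 (minus) for Hsp90b1, chr12:44210069-44210318 (minus) for Dnajb9, chr8:83607925-83608174 (plus) for Dnajb1, chr17:34959239-34959488 (minus) for Hspa1b and chr5:135887669-135887918 (plus) for Hspb1.

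The ER stress element was found in the windows of Hspa5 and Hsp90b1 and in no other member window. Hspa5 had 1 match, beginning 65 bases before the start, and Hsp90b1 had 2, beginning 212 and 107 bases before it. Of 32841 promoter windows of this length in the table, 0.113% held the element. TGACG was present in Hspa5 (157 bases before the start), Dnajb9 (140), Dnajb1 (11) and Hspb1 (141), and in 17.77% of all windows. The full palindrome TGACGTCA, found in 1.547% of windows, was in none of the members' windows. The heat shock pair GAANNTTC occurred 1 time in Hspa1a and in Hspa1b (104 bases before the start in both) and 2 times in Hspb1 (117 and 97), against 6.696% of all windows. The other orientation, TTCNNGAA (7.168% of windows), was not in any member window. CCAAT alone was common (33.857% of windows), with 4 copies in Hspa5 and 5 in Hsp90b1, counting those inside the ER stress elements. The windows of Hspa1a and Hspa1b differed at 3 of 250 bases. A window was found for 8 of the 9 members, and that of Ahsa1 held no match to any motif searched. Only exact matches were counted, and variants of the elements were not searched. A match of letters is a description and shows no binding.

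**Figure D1:**
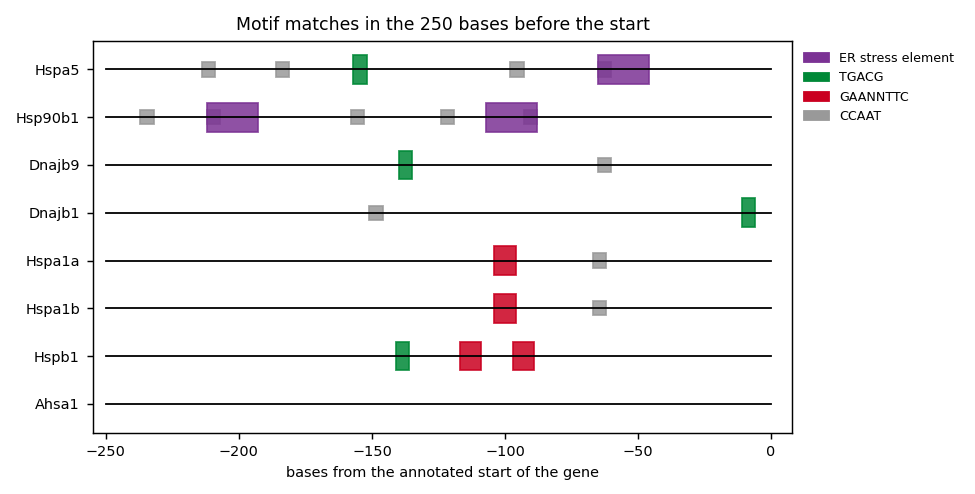
Positions of motif matches in the 250 bases before the annotated start of 8 members (horizontal axis, bases from the start; 1 line per gene). The ER stress element appears in Hspa5 (1 match) and Hsp90b1 (2 matches), and GAANNTTC in Hspa1a, Hspa1b and Hspb1.

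The 16 libraries held 12960704 to 19226963 counts. All 11 genes listed as stem cell markers had counts in every group. Their summed level was 4753 to 5536 CPM (counts scaled to library size) on date 1 and 3473 to 4588 CPM on date 2. The list includes Cd48 and Flt3, which also mark progenitors. Cd48 held 1.05 to 13.8 CPM on date 1 and 26.9 to 81.1 CPM on date 2, and Flt3 11.6 to 53.3 and 17.4 to 81.0 CPM. Markers of other blood cells differed between the dates too. The summed level of 9 neutrophil markers was 4.12 to 9.39 CPM on date 1 and 752 to 1431 CPM on date 2, with none of the 9 at 0 throughout any group. For 6 markers of myeloid progenitors the sums were 139 to 324 and 1465 to 3535 CPM, and for 5 of 9 erythroid markers (the others were not in the table) the sums were 31.9 to 54.2 and 299.9 to 1056 CPM. For the 5 of 7 plasma cell markers in the table, cells rich in ER chaperones, the sums were 10.8 to 18.8 and 19.9 to 610.0 CPM. With the ages pooled, the neutrophil and myeloid sums overlapped between vehicle and dmPGE2 libraries within a date. Within an age the myeloid sums still overlapped, as did the neutrophil sums of old mice. In young mice the neutrophil sums were 5.55 to 6.40 CPM in vehicle and 6.85 to 9.39 CPM with dmPGE2 on date 1. On date 2 they were 1263 to 1431 and 964 to 1253 CPM. Plasma cell sums overlapped except in old mice of date 2 (98.25 to 255.7 and 23.7 to 60.4 CPM). Sums of B cell and of T and NK cell markers did not overlap in some groups. As these are bulk libraries, a lower level can mean fewer cells of a type or less RNA per cell, and these cannot be told apart.

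In vehicle the members spanned a wide range of levels, compared here per kilobase of exon (RPKM, medians over 8 mice). Hspa8, the constitutive cytosolic Hsp70, was highest at 1095.5 RPKM, followed by Hspa5 at 404, Hsp90b1 at 189, Ahsa1 at 171.5, Dnajb1 at 130, Dnajb9 at 39.99, Hspa1b at 17.7, Hspa1a at 6.15 and Hspb1 at 3.97 RPKM. The lowest mouse for Hspa8 (891 RPKM) lay above the highest for Hspa5 (846), the lowest for Hspa5 (302) above the highest for Hsp90b1 (269), and the lowest for Dnajb1 (84.6) above the highest for Dnajb9 (56.1). Hsp90b1, Ahsa1 and Dnajb1 overlapped with their neighbours in this order, as did Dnajb9, Hspa1b, Hspa1a and Hspb1. The spread also differed between genes. Ahsa1 ran from 203 to 276 CPM over the 8 vehicle libraries, whereas Hspa1b ran from 6.21 to 246.5 CPM.

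**Figure D2:**
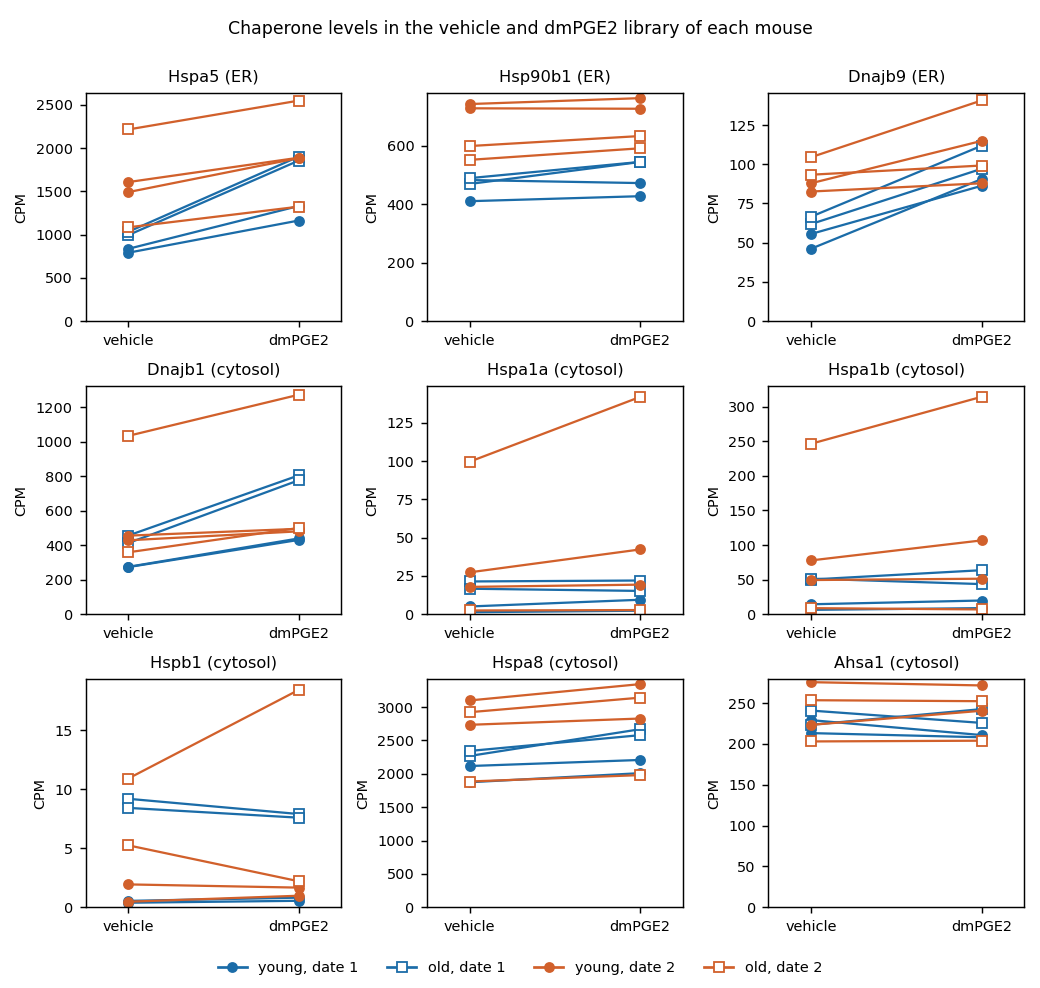
Level of each member (vertical axis, CPM on a linear scale from 0) in the vehicle and dmPGE2 library of each mouse, joined by a line, with colour for date and marker for age. Hspa5, Dnajb9, Dnajb1 and Hspa8 are higher with dmPGE2 in 8 of 8 mice, and mouse 485 stands highest for Hspa5, Dnajb9, Dnajb1, Hspa1a, Hspa1b and Hspb1 in both conditions.

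The comparison of dmPGE2 with vehicle asked how stem cells of the same animal differed after marrow was kept for 1 hour with either. The cells were sorted after that hour, so the changes are not timed to within it. Over all 8 mice, 3 chaperones rose by about the same factor: Hspa5, the central ER chaperone, 1.43-fold, its partner Dnajb9 1.42-fold, and the cytosolic partner of Hsp70, Dnajb1, 1.44-fold (edgeR, adjusted p below the threshold of 0.05 over all genes tested). These are 3 of 9 members, against 71 of 13942 genes higher, or 0.509%. The members had been listed with earlier results of these data known, so this count is a description. None fell.

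For Hspa5 the vehicle libraries of mice 477, 478, 479 and 480 held 789, 834, 993 and 1031 CPM, and their dmPGE2 libraries 1162, 1330, 1855 and 1901 CPM. In mice 483, 484, 485 and 486 the vehicle values were 1606, 1490, 2214 and 1083 CPM and the dmPGE2 values 1888, 1884, 2548 and 1322 CPM. All 8 mice were higher with dmPGE2, and the groups did not overlap on date 1 but did on date 2. The fitted change was 0.51 ± 0.090 on the log2 scale (approximate SE, n = 8 pairs, edgeR adjusted p = 0.0456).

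Dnajb9 stood at 46.1, 55.5, 61.9 and 66.6 CPM in vehicle and 90.6, 86.3, 97.1 and 112 CPM with dmPGE2 in mice 477 to 480. In mice 483 to 486 it stood at 87.9, 82.6, 104.5 and 93.3 CPM in vehicle and 115, 87.9, 141 and 99.2 CPM with dmPGE2. Again 8 of 8 mice were higher, without overlap on date 1 and with overlap on date 2. The fitted log2 change was 0.50 ± 0.096 (edgeR adjusted p = 0.0397). Hsp90b1, the third ER member, behaved differently: its vehicle values of 410 to 743 CPM and dmPGE2 values of 427 to 763 CPM nearly coincided. Its log2 change was 0.08 ± 0.032 (edgeR adjusted p = 0.306), with 6 of 8 mice higher. Its promoter window held 2 exact matches to the ER stress element and that of Hspa5 held 1. Any part of the element in these changes was not tested.

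Among the cytosolic members, Dnajb1 held 273, 274.5, 456 and 412.5 CPM in vehicle and 431, 439.6, 806 and 777.5 CPM with dmPGE2 in mice 477 to 480. In mice 483 to 486 it held 456, 429, 1035 and 359 CPM in vehicle and 495, 481, 1274 and 500.3 CPM with dmPGE2. Each of the 8 mice was higher with dmPGE2, while the groups overlapped on both dates because mice differed in their starting level. The fitted log2 change was 0.52 ± 0.081 (edgeR adjusted p = 0.0183). Hspa8 was higher in 8 of 8 mice too, but by little: log2 0.11 ± 0.026 (1.08-fold, edgeR adjusted p = 0.0772), which did not pass. It did pass in DESeq2 (adjusted p = 0.00287), in voom (adjusted p = 0.0185) and in edgeR with dmPGE2 terms by date (adjusted p = 0.0495). These fits called 4 members, next to 443, 225 and 347 of all genes.

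The inducible Hsp70 genes did not pass the test. Hspa1a had a log2 change of 0.37 ± 0.12 (edgeR adjusted p = 0.197) with 7 of 8 mice higher, and Hspa1b one of 0.21 ± 0.092 (adjusted p = 0.361) with 6 of 8 higher. Hspb1 changed by 0.12 ± 0.27 (adjusted p = 0.909), higher in 4 mice and lower in 4, at counts of 7 to 269 per library. Ahsa1 was nearly level at -0.0015 ± 0.041 (adjusted p = 0.993). Its per-mouse changes ran from -0.12 to 0.12 on the log2 scale.

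**Figure D3:**
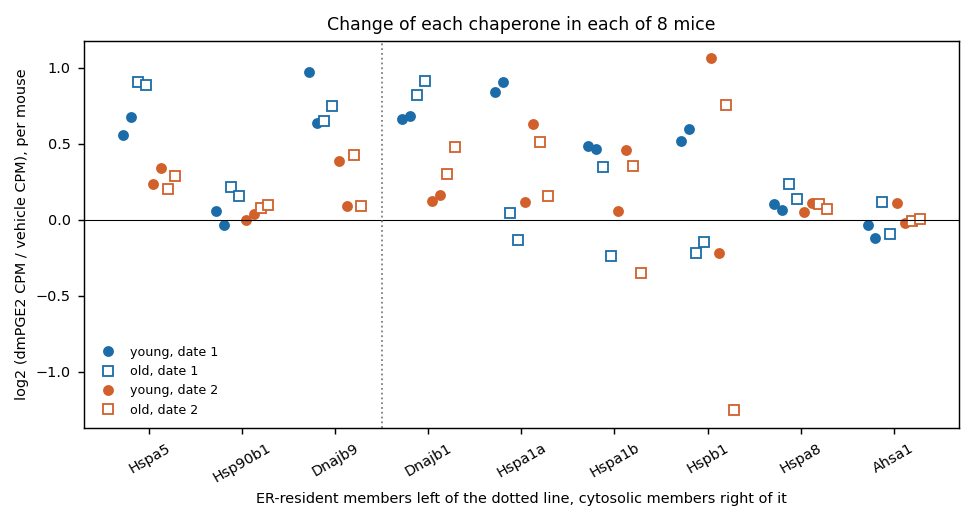
Change of each member in each mouse (vertical axis, log2 of dmPGE2 CPM over vehicle CPM; 1 point per mouse, ER members left of the dotted line). Hspa5, Dnajb9, Dnajb1 and Hspa8 lie above 0 in 8 of 8 mice, and the spread is widest for Hspb1 (-1.25 to 1.06).

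ER and cytosolic members overlapped in their response. In each mouse, the mean log2 change of the 6 cytosolic members was subtracted from that of the 3 ER members. The result averaged 0.14 ± 0.23 (SD, n = 8 mice) and was above 0 in 4 of 8 mice. It was 0.25 ± 0.24 on date 1 (above 0 in 3 of 4 mice) and 0.033 ± 0.19 on date 2 (1 of 4). Without Hspa1a and Hspa1b among the cytosolic members it averaged 0.17 ± 0.19 and was above 0 in 6 of 8 mice (4 of 4 on date 1 and 2 of 4 on date 2). With all members, mice 479, 480 and 486 had the highest differences, 0.37, 0.52 and 0.31, and the log2 change of Hspb1 was below 0 in these mice and in mouse 484. In mouse 483 the log2 change of Hspb1 was 1.06 and the difference -0.045. Hspb1 weighed as much as each other cytosolic member, although it held only 7 to 25 counts in young libraries. The signs of the differences therefore depend in part on this low gene, and a difference without it was not computed. Both sides were mixed: 2 of 3 ER members and 1 of 6 cytosolic members were called. Cytosolic Hspa8 was also called in 3 of 18 alternative fits. The difference is given without a test because the members were chosen with results known.

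The count of 3 depended on the date 1 mice. It was 0 without any 1 of mice 477, 478, 479 and 480, 1 without mouse 483 (Dnajb1) and 2 without mouse 484 (Dnajb9 and Dnajb1). It was also 0 in a fit without the replicate block, which leaves date unadjusted. Calls over all genes fell too, from 85 with all mice to 0, 2, 1 and 5 without mice 477, 478, 479 and 480. They were also fewer without the block. The loss of calls was therefore not particular to the members. The log2 values moved little when a mouse was left out, from 0.46 to 0.57 for Hspa5, 0.43 to 0.57 for Dnajb9 and 0.47 to 0.57 for Dnajb1.

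The size of the response differed between the dates. On date 1, Hspa5 rose 1.70-fold (log2 0.76 ± 0.042, edgeR adjusted p = 3.1e-07), Dnajb9 1.69-fold (0.76 ± 0.096, adjusted p = 5.74e-04) and Dnajb1 1.71-fold (0.78 ± 0.049, adjusted p = 1.13e-06). The fit had separate dmPGE2 terms by date and by age. On date 2, Hspa5 and Dnajb1 each rose 1.20-fold (both log2 0.27, ± 0.042 and ± 0.049, adjusted p = 0.0147 and 0.0466), and Dnajb9 had a value of 0.25 ± 0.095 (adjusted p = 0.507). The called members were 3 of 9 on date 1, where 2.42% of genes were higher, and 2 of 9 on date 2, where 0.366% were.

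Tested directly, the dmPGE2 effect was smaller on date 2 for Hspa5 (log2 difference -0.49 ± 0.059, edgeR adjusted p = 7.66e-04) and Dnajb1 (-0.51 ± 0.069, adjusted p = 0.00221), 2 of 9 members against 1.01% of genes. Dnajb9 had a difference of the same size, -0.51 ± 0.13, that did not pass (adjusted p = 0.167). For Hspa1a, Hspa1b, Hspb1, Hspa8, Hsp90b1 and Ahsa1 the difference lay between -0.13 and 0.049, and none passed. On date 2 the Dnajb1 call was lost without any 1 of the 8 mice and the Hspa5 call without any 1 of 479, 480, 484, 485 and 486. Neutrophil, myeloid and erythroid sums were higher on date 2 and the stem cell sum was lower, as given above. The part of these markers in the difference between the dates was not tested.

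The starting levels differed between the dates as well. In vehicle, the 3 ER members were higher on date 2 than on date 1: Dnajb9 1.60-fold (log2 0.68 ± 0.097, edgeR adjusted p = 9.4e-04), Hsp90b1 1.40-fold (0.49 ± 0.095, adjusted p = 0.00734) and Hspa5 1.76-fold (0.81 ± 0.18, adjusted p = 0.0212). They were the only members called of the 9, against 8% of genes higher. For each of the 3, no date 1 vehicle library reached the lowest one of date 2. How many of all genes were separated in this way was not computed, so the lack of overlap is a description. The cytosolic members overlapped between the dates, with values of 0.68 ± 0.27 for Dnajb1 (adjusted p = 0.157), 0.30 ± 0.14 for Hspa8, 0.071 ± 0.094 for Ahsa1 and 0.47 ± 0.50 for Hspb1. Hspa1a and Hspa1b had large values with large errors, 2.07 ± 1.0 and 1.94 ± 0.96. With dmPGE2 the dates overlapped for Hspa5 (1162 to 1901 and 1322 to 2548 CPM) and Dnajb9 (86.3 to 112 and 87.9 to 141 CPM). Hsp90b1, which hardly changed with dmPGE2, still did not overlap (427 to 545 and 591 to 763 CPM). Neutrophil, myeloid and plasma cell sums were higher on date 2 and the stem cell sum was lower, as given above. Among the plasma cell markers, Jchain held 0.054 to 3.86 CPM on date 1 and 0.266 to 579.8 CPM on date 2, so the dates overlapped. Mzb1 was higher throughout date 2 (up to 0.247 and 1.87 to 11.1 CPM), while Sdc1, Prdm1 and Derl3 overlapped between the dates, like Jchain. The part of these cell types in the ER chaperone levels was not tested. Without mouse 486, Dnajb1, Hspa1a, Hspa1b and Hspa8 were called as well, and without 477, 478, 479 or 484 Hspa5 was not.

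**Figure D4:**
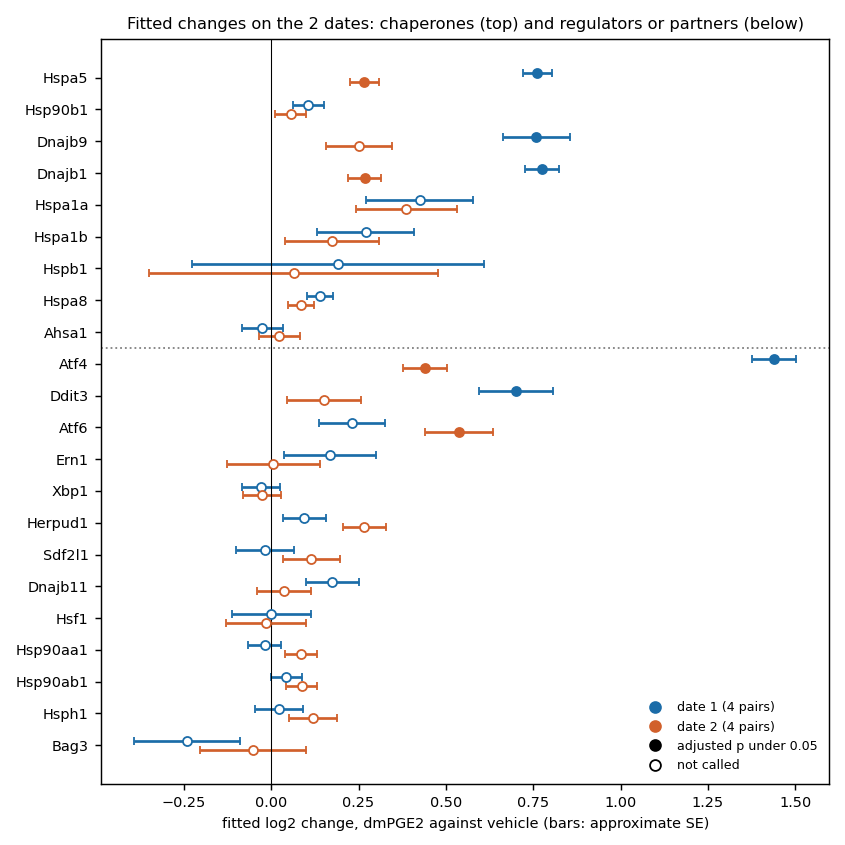
Fitted log2 change with dmPGE2 on date 1 and date 2 (horizontal axis; bars, approximate SE; 4 pairs per date) for the 9 members and, under the dotted line, 13 regulators and partners. Filled points have an adjusted p under 0.05. Hspa5, Dnajb9, Dnajb1 and Atf4 sit farther from 0 on date 1, while Hsp90b1, Ahsa1, Xbp1 and Hsf1 stay near it on both dates.

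Lists of other genes of these pathways, with the members left out, gave few calls after dmPGE2, as did all genes (0.509% higher), so a count of 0 in a list is near the background. Over all mice, 0 of 29 further ER folding genes, 0 of 22 cytosolic heat shock genes, 0 of 23 cytosolic co-chaperones, 0 of 14 genes of the CCT and prefoldin complexes and 0 of 12 mitochondrial chaperones were called, with median log2 changes of 0.049, 0.042, -0.0091, -0.014 and 0.0037 against -0.0039 for all genes. Of 20 genes of unfolded protein response signalling 1 rose: Atf6, the ER-anchored sensor, 1.30-fold (log2 0.38 ± 0.078, edgeR adjusted p = 0.0498). Of 17 genes of ER-associated degradation, which returns misfolded proteins to the cytosol, 1 rose: the ubiquitin-conjugating enzyme Ube2j1, 1.31-fold (0.39 ± 0.060, adjusted p = 0.0163). Xbp1 had a log2 change of -0.027 ± 0.039, Ern1 0.088 ± 0.091, Herpud1 0.18 ± 0.052, Dnajb11 0.11 ± 0.058 and Sdf2l1 0.049 ± 0.058. Splicing of Xbp1 mRNA, by which Ern1 acts, cannot be read from counts per gene. Among heat shock regulators and partners, Hsf1 had -0.0075 ± 0.076, Hsp90aa1 0.033 ± 0.036, Hsp90ab1 0.065 ± 0.030, Hsph1 0.071 ± 0.049 and Bag3 -0.15 ± 0.11, none of them called.

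On date 1, where 2.42% of all genes were higher, 6 of the 20 signalling genes rose, among them Cebpb (7.24-fold), a stress-induced transcription factor, Ppp1r15a (4.91-fold), which restores translation by helping to dephosphorylate eIF2 alpha, Atf4 (2.71-fold, log2 1.44 ± 0.064, edgeR adjusted p = 3.94e-08) and Ddit3 (1.62-fold, adjusted p = 0.00257), a target of Atf4. These genes also answer to signals other than unfolded protein. Their mean levels on date 1 went from 106 ± 14.4 to 289 ± 64.7 CPM for Atf4 and from 35.8 ± 3.38 to 58.6 ± 12.1 CPM for Ddit3 (SD, n = 4 mice). On date 2, where 0.366% of all genes were higher, 4 of the 20 rose: Ppp1r15a (1.43-fold), Cebpb (1.59-fold), Atf4 (1.36-fold) and Atf6 (1.45-fold, adjusted p = 0.0418). The dmPGE2 effect was smaller on date 2 for 4 of the 20 (1.01% of all genes), with log2 differences of -0.998 ± 0.089 for Atf4 (adjusted p = 5.66e-05), -1.78 ± 0.086 for Ppp1r15a, -2.18 ± 0.12 for Cebpb and -5.38 ± 0.42 for Atf3. In vehicle, Atf3 was near the floor on date 1, at 1.04 ± 1.48 CPM, against 33.0 ± 16.4 CPM on date 2 (SD, n = 4 mice). Vehicle means on dates 1 and 2 were 106 and 229 CPM for Atf4, 253 and 748 for Ppp1r15a, and 88.45 and 416 for Cebpb. With dmPGE2 the date means were closer, at 289 and 314 CPM for Atf4 and 1150 and 1059 for Ppp1r15a. For Cebpb they were 639 and 655 CPM, and for Atf3 27.65 and 39.9 CPM. Of the 29 ER folding genes only Sec61a1, a subunit of the import channel, rose on date 1 (1.15-fold, adjusted p = 0.0433), and none did on date 2. The 22 heat shock genes, 23 co-chaperones, 14 CCT and prefoldin genes and 12 mitochondrial genes had 0 calls on either date.

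Hspa5 and Dnajb1 resembled each other more than any other gene compared. Likeness was measured as the mean absolute difference between the per-mouse log2 changes of 2 genes over the 8 mice, among 8780 genes with a mean log2 CPM of at least 4. Dnajb1 was the closest gene to Hspa5 and Hspa5 the closest to Dnajb1, at 0.099. After it came Zfp622, Trmt10c, Tob2 and Nhp2l1 for Hspa5 (0.11 to 0.12), and Ing2, Zfp593, Zfp622 and Pnrc1 for Dnajb1 (0.12 to 0.13). The 8 mice share 2 dates, and the measure reflects the date difference as well as the level of the change.

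Whether age alters the response was tested by comparing the dmPGE2 terms of old and young mice. In old mice the log2 changes were 0.58 ± 0.13 for Hspa5, 0.49 ± 0.14 for Dnajb9 and 0.64 ± 0.11 for Dnajb1, and in young mice 0.45 ± 0.13, 0.52 ± 0.14 and 0.41 ± 0.11. In neither age was a member called in this fit, which has no date terms, and edgeR called 0% of all genes in both, with 1096 genes in old and 1785 in young mice at an unadjusted p under 0.05. With date terms in the fit, Hspa5, Dnajb9 and Dnajb1 were called in each age, with 210 genes in old and 257 in young mice. Hspa5 then had a log2 change of 0.58 ± 0.042 in old (adjusted p = 7.12e-06) and 0.45 ± 0.042 in young mice (adjusted p = 6.82e-05). DESeq2 called 3 members in old mice (Hspa5, Dnajb1 and Hspa8) and 2 in young mice (Hspa5 and Dnajb9). The difference between the ages was 0.13 ± 0.18 for Hspa5, -0.035 ± 0.19 for Dnajb9 and 0.23 ± 0.16 for Dnajb1. Hspa1a had the more positive value in young mice (0.58 ± 0.17, against 0.16 ± 0.16 in old mice, difference -0.42 ± 0.23). No member and 0% of genes passed for this difference (955 genes at an unadjusted p under 0.05; DESeq2 also called 0 members), and with date terms 1 gene and no member did. In that fit the difference was 0.13 ± 0.059 for Hspa5 (adjusted p = 0.605) and 0.23 ± 0.069 for Dnajb1 (adjusted p = 0.477). A difference in response was not shown for any of the 9, which does not show that the ages respond alike.

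Old and young stem cells were also compared with each other. Among the 9 members, Hspb1 had the largest fitted difference in both conditions. The vehicle libraries of young mice 477, 478, 483 and 484 held 0.381, 0.538, 0.467 and 1.93 CPM (7, 10, 7 and 25 counts), and those of old mice 479, 480, 485 and 486 held 9.18, 8.41, 10.9 and 5.24 CPM (160, 153, 166 and 81 counts). The ages did not overlap. With dmPGE2 the young mice held 0.546, 0.812, 0.974 and 1.66 CPM and the old mice 7.89, 7.58, 18.4 and 2.20 CPM, again without overlap. The fitted difference was 10.8-fold in vehicle (log2 3.44 ± 0.54, edgeR adjusted p = 0.00163) and 9.23-fold with dmPGE2 (3.21 ± 0.59, adjusted p = 0.00487). It was the 1 of 9 members called in vehicle, where 8.47% of genes were higher and 8.86% lower. The filter on low counts was passed through the old mice, so the test was also read from a fit of every gene in the table without that filter, where the adjusted p was 0.00143 in vehicle and 0.00475 with dmPGE2. Entry into the table itself did not need the old mice, since 6 of 8 young libraries exceeded 0.5 CPM. Within date 1 the log2 difference was 4.22 in vehicle (adjusted p = 0.00123), and within date 2 it was 2.74 and did not pass (adjusted p = 0.122, 2 mice of each age).

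Dnajb1 was the other member called with age, and only in the dmPGE2 libraries. There it was 1.81-fold higher in old mice (log2 0.85 ± 0.22, edgeR adjusted p = 0.0306), at 431 to 495 CPM in young and 500.3 to 1274 CPM in old mice, with no overlap. In vehicle the value was 0.64 ± 0.27 (adjusted p = 0.148), and the ages overlapped (273 to 456 and 359 to 1035 CPM). The dmPGE2 count of members was 2 of 9, where 7.85% of genes were higher and 6.41% lower. The Dnajb1 call was lost without any 1 of mice 477, 478, 479, 480, 483 and 484, at an adjusted p of up to 0.0817.

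No ER member was called between the ages over all mice. Hspa5 had a log2 difference of 0.18 ± 0.18 in vehicle and 0.30 ± 0.18 with dmPGE2, Hsp90b1 -0.15 ± 0.095 and -0.013 ± 0.10, and Dnajb9 0.25 ± 0.096 (adjusted p = 0.0971) and 0.23 ± 0.12. On date 1 alone, Hspa5 (0.59 ± 0.068, edgeR adjusted p = 3.1e-04) and Hsp90b1 (0.27 ± 0.066, adjusted p = 0.0178) were higher in old dmPGE2 libraries, from 2 mice of each age. Hspa8 and Ahsa1 lay between -0.057 and 0.014 over all mice in both conditions.

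Hspa1a and Hspa1b varied more between mice than between groups. Their summed level in vehicle was 7.46, 19.3, 67.1 and 105.0 CPM in young mice 477, 478, 483 and 484, and 71.4, 67.9, 346 and 11.1 CPM in old mice 479, 480, 485 and 486. With dmPGE2 the same mice held 10.9, 29.1, 70.5 and 148.9 CPM, and 85.5, 58.6, 456 and 9.46 CPM. Mouse 485 was the highest and mouse 486 among the lowest in both libraries, although both were old mice of date 2. The log2 difference between the ages was 1.80 ± 1.0 for Hspa1a and 1.60 ± 0.96 for Hspa1b in vehicle (edgeR adjusted p = 0.278 and 0.323).

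Mice 485 and 486, both old and of date 2, moved the age values in opposite directions. Without mouse 485, the log2 difference in vehicle was -0.023 for Hspa5, 0.28 for Dnajb1, 1.00 for Hspa1a and 0.82 for Hspa1b, none of them called. Without mouse 486, Hspa5 (log2 0.38, edgeR adjusted p = 0.00419), Dnajb1 (0.87, adjusted p = 6.63e-04), Hspa1a (2.37, adjusted p = 0.00197) and Hspa1b (2.13, adjusted p = 5.5e-04) were also higher in old vehicle libraries, 5 members in place of 1. With dmPGE2 and without mouse 486, Hspa5 (0.53, adjusted p = 6.51e-04), Hspa1a and Hspa1b were called as well, 5 in place of 2. Date 1 alone gave 4 members in vehicle (Dnajb1, Hspa1a, Hspa1b and Hspb1) and 6 with dmPGE2, and date 2 alone gave 0 in both. Calls over all genes fell on date 2 alone too, to 483 in vehicle and 264 with dmPGE2. With all mice they were 2318 and 1894, and over all alternative fits they reached at most 2856 and 2557. Markers of other blood cells differed between the ages on both dates. On date 1 the myeloid sums were 139 to 177 CPM in young and 288 to 324 CPM in old mice, and the sums of 7 T and NK cell markers 74.9 to 109.7 and 134 to 195 CPM. On date 2 the young mice held more of the myeloid (2389 to 3535 and 1465 to 1687 CPM), neutrophil (964 to 1431 and 752 to 794 CPM) and erythroid markers (979 to 1056 and 299.9 to 462 CPM), while the B cell and plasma cell sums overlapped. Endothelial markers, for cells that also make Hspb1, had vehicle sums of 112.6 to 116 CPM in young and 115 to 147 CPM in old mice of date 1, and 82.4 to 114 and 135 to 136 CPM on date 2. The defining endothelial marker Cdh5 was at or under 2.66 CPM in all libraries. The part of these markers in the age differences was not tested.

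**Figure D5:**
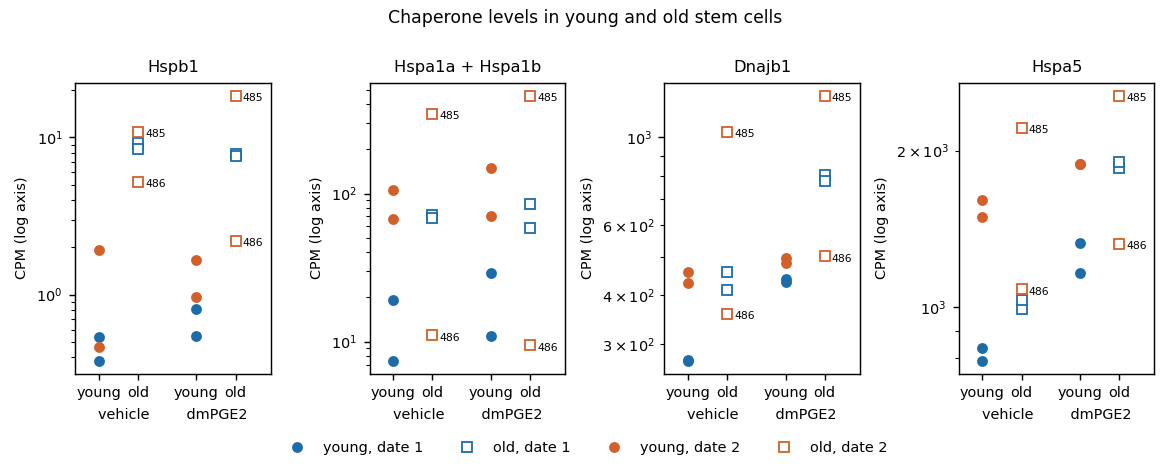
Levels of Hspb1, Hspa1a plus Hspa1b, Dnajb1 and Hspa5 (vertical axes, CPM, log axis) in young and old mice by treatment, 1 point per library, with old mice 485 and 486 labelled. The ages do not overlap for Hspb1 in either condition or for Dnajb1 with dmPGE2, and mouse 485 is the highest in each panel.

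Counts of 6 members may carry a further limit from a close copy or an overlapping gene. Hspa1a and Hspa1b lie on chromosome 17 and share 58.81% and 62.31% of their 50-base words, so reads can fit both. Hspa1a took 16.8% to 32.3% of the counts of the pair in every library (the 95% exact binomial interval was 10.95% to 24.1% for the lowest and 28.5% to 36.3% for the highest share, for counting error only). Exons of Hspa1a also overlap those of Gm20481 on the opposite strand over 564 bases, and exons of Hsp90b1 those of 1810014B01Rik over 415 bases (GENCODE M21). The library kit named in the labels does not mark strand, so these reads cannot be told apart. Hsp90b1 also shares 84 bases with Gm15344 and 133 with Gm25745 on its own strand. GENCODE exons of Hspa8, over all its transcripts, contain the small RNA genes Snord14c, Snord14d and Snord14e, 86 to 90 bases each. Those of Ahsa1 and Dnajb9 overlap the small RNA genes Gm47293 (76 bases) and Mir5627 (14 bases). These joined exons span 4301 bases for Hspa8, 4377 for Ahsa1 and 4032 for Hsp90b1, against deposited exon lengths of 2104, 1320 and 2759. Whether the deposited counts include the overlapping bases is therefore not known.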

How the data were processed

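The table analysed held raw read counts per gene, made by the authors and deposited without normalization. Per the submitters' processing notes the reads were handled with STAR 2.5.2b, featureCounts, Subread 1.5.1 and build mm10, with no role or order given; the strand setting and the treatment of reads that fit several genes are not stated there. After 14829 genes came 2504 empty lines, which were dropped. Each gene had over 0.5 CPM in at least 2 libraries, so lower genes were removed before deposit. CPM and RPKM were computed here from these counts, library totals and the deposited exon length.

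edgeR 4.0.16 was used for quasi-likelihood tests (R 4.3.3; TMM, filterByExpr by group, robust dispersion) and Benjamini-Hochberg adjustment over all genes tested. The dmPGE2 fits held all 16 libraries with mouse as a block (13942 genes), with terms by age (6 residual degrees of freedom) or by date and age (4). Age and date were tested in the 8 vehicle (13369 genes) or 8 dmPGE2 libraries (13279 genes; 5 degrees of freedom). SE is the absolute log2 change over the square root of F. Pairing comes from the labels: both libraries of a mouse hold its cells. Their deviations from group means correlated at 0.374 to 0.627, and at 0.014 to 0.181 once date means were also removed. DESeq2 1.42.0, voom in limma 3.58.1, other filters, other fits and leaving out each mouse were alternatives. The fitting code was tested on simulated counts. Shares of all genes that did not overlap between groups, or that were higher in 8 of 8 mice, were not computed.

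The members and the gene lists were chosen with earlier results of these data known. All 9 members are named, up to 3 called genes by smallest p from each list and comparison, 13 fixed regulators and partners, and the 5 genes most like Hspa5 and Dnajb1. Promoter windows stop at the annotated start; starts in 8 of the 9 windows of members equal those of the counts table. Motif shares cover 32841 windows of full length.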

Additional observations from a re-analysis of the deposited data

Results flagged for a closer look

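The dmPGE2 effect differed between the dates for Hspa5 (log2 difference, date 2 minus date 1, -0.4941) and Dnajb1 (-0.5084), both by the test of the difference itself in edgeR (adjusted p = 7.66e-04 and 0.00221).

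A single mouse stood far from the other 3 of its group in 6 of 63 sets of values, where chance gives about 1 in 20. The measure is the gap to the nearest mouse as a share of the whole range. In old vehicle libraries it was 0.9259 for Hspa5 and 0.8562 for Dnajb1, with mouse 485 highest in both (2214 and 1035 CPM). In old dmPGE2 libraries it was 0.8614 for Hspa1a, again with mouse 485 highest (142 CPM). In young vehicle libraries it was 0.8989 for Hspb1, where mouse 484 was highest (1.93 CPM), and in young dmPGE2 libraries 0.8502 for Dnajb9, where mouse 483 was highest (115 CPM). For the log2 change of Hspa1b in young mice it was 0.9370, with mouse 483 lowest (0.055, against 0.46 to 0.48 in the other 3).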

How the results depend on the processing

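Among 90 member values, 90 kept their direction and side of the threshold with DESeq2 size factors in place of TMM and 90 without the filter on low counts. The shift of the median of all genes between scalings was under 0.1. Values that missed the threshold in both fits could change sign without being counted, and did so 4 times without the replicate block and 3 to 9 times per mouse left out. Over all mice, 3 members were called, and 4 with DESeq2, voom or date terms. The count was 0 without the replicate block, 1 on date 2 alone and 0 to 3 with a mouse left out. In old mice 0 were called, against 3 with DESeq2, 3 with date terms and 3 on date 1 alone; in young mice 0, against 2, 3 and 3. On date 1, 3 were called, 4 with DESeq2 and with voom, and 1 without the block. On date 2, 2 were called, 1 without robust dispersion, 0 without the block, 1 from date 2 libraries alone and 0 to 1 with a mouse left out. For the date difference, 2 were called and 0 without the block. For age in vehicle, 1 was called, 4 on date 1 alone, 0 on date 2 alone and 1 to 5 with a mouse left out. For age with dmPGE2, 2 were called, 1 with voom, 6 on date 1 alone, 0 on date 2 alone, 1 without the date term and 1 to 5 with a mouse left out. For date 2 against date 1 in vehicle, 3 were called and 2 to 7 with a mouse left out. Hsp90b1 in old against young dmPGE2 libraries reversed, from -0.013 to 0.2745 on date 1 alone (adjusted p = 0.0178). Fits on 1 date use fewer libraries; the cause of the other changes was not tested.

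The number of all genes called moved more. Over all mice it was 85 and ran from 0 (without mouse 477) to 725 (date 1 alone). On date 1 it was 408 (236 to 725), on date 2 54 (10 to 133), for the date difference 151 (100 to 246), and for age 2318 in vehicle (483 to 2856) and 1894 with dmPGE2 (264 to 2557). For date 2 against date 1 in vehicle it was 1472 (902 to 2048). Filtering low counts by the design matrix, added after seeing the data, left 2 members called over all mice, with Hspa5 at an adjusted p of 0.0504. Depth limits Hspb1, at 7 to 25 counts in young libraries.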

Other observations

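Genes of other chaperone groups were also called with age, a comparison in which 8.47% of all genes tested were higher and 8.86% lower in vehicle. There, 4 of 14 genes of the CCT and prefoldin complexes, which fold actin and tubulin, were lower in old mice, among them Cct8 (log2 -0.26 ± 0.057, edgeR adjusted p = 0.0111), Cct5 (-0.25 ± 0.062) and Tcp1 (-0.25 ± 0.065), and none was higher (median -0.21, against -0.0012 for all genes). Of 12 mitochondrial chaperones 3 were lower: Hspd1 (-0.30 ± 0.067), its partner Hspe1 (-0.52 ± 0.15) and Grpel1 (-0.35 ± 0.096). Of 23 cytosolic co-chaperones 6 were lower, among them Cdc37 (-0.25 ± 0.056), which brings kinases to Hsp90, Ppid (-0.33 ± 0.086) and Bag1 (-0.33 ± 0.089). Of 22 heat shock genes, Dnajb4 was higher (0.64 ± 0.17) and Hspa14 (-0.48 ± 0.11) and Hsf1 (-0.32 ± 0.096, adjusted p = 0.0422) were lower. With dmPGE2, 3 of 14, 1 of 12 and 3 of 23 of the first 3 lists were lower, against 6.41% of all genes, and none was higher.

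Of 29 ER folding genes, 2 were higher and 3 lower with age in vehicle, near those shares of all genes. Serpinh1, a collagen chaperone, was 2.40-fold higher in old mice (log2 1.26 ± 0.31, edgeR adjusted p = 0.0175), while Dnajb11 (-0.47 ± 0.098) and Sdf2l1 (-0.65 ± 0.14), which act with Hspa5, were lower. Of 19 tested genes of unfolded protein response signalling 5 were higher in old mice and none lower, led by Nupr1 (8.58-fold), Ppp1r15a (1.95-fold) and Atf6 (1.46-fold, adjusted p = 0.00777). Between the dates in vehicle, 8 of 29 ER folding genes were higher on date 2, against 8% of all genes, and none lower, among them Sdf2l1 (1.71-fold), Dnajb11 (1.43-fold) and Pdia4 (1.24-fold), next to 3 of 17 genes of ER-associated degradation (Edem1, Vimp and Os9) and 6 of 19 signalling genes such as Atf4 (2.17-fold, adjusted p = 2.66e-05), with 1 of the 19 lower. Blood cell markers also differed between the dates and, on each date, between the ages, and their part in these differences was not tested.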
